A study of Mus musculus with 6 samples.

Results

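Levels of 9 genes that act in fatty acid use, among them known targets of the peroxisome proliferator-activated receptors (PPARs), were read in mouse gastrocnemius, a mainly fast-twitch muscle of the calf. The genes were Lpl, Angptl4, Cd36, Fabp3, Acot1, Acot2, Pdk4, Ucp3 and Ucp2. They were chosen by name, with earlier results of these data known. Each name matched 1 of the 55995 listed features. All 9 genes were among the 11938 features that averaged 1 TPM or more and were tested. TPM is a transcript level scaled for transcript length and for the total of the library.

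PPARs are nuclear receptors that bind fatty acids, pair with a retinoid X receptor and switch on genes whose products take up, handle and burn fat. In skeletal muscle the main form is PPAR-delta, and fasting and exercise are known to raise several of its targets. Fat reaches a fibre when lipoprotein lipase frees fatty acids on the capillary wall, CD36 passes them through cell membranes and FABP3 carries them in the cytosol. Angptl4 acts on the lipase itself. Acot1, Acot2, Pdk4, Ucp3 and Ucp2 act downstream, on acyl-CoA, on the use of pyruvate in the mitochondrion and on the proton gradient.

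All mice were NSG (NOD/SCID/IL2Rγ-null), which lack mature T, B and NK cells, and all carried a subcutaneous tumour of WT MDA-MB-231, a human breast cancer line, injected with Matrigel in the left flank. In the radiotherapy group (RT, 3 libraries) the tumour alone was irradiated near 800 mm3 with 10 Gy in 1 dose (6 MV beam, 6 Gy per minute), and the contralateral muscle was collected after 3 days. The control group (CT, 3 libraries) had no irradiation, and the labels give no tumour size or sampling day that is its own, so a difference in either cannot be told apart from irradiation. Whether each library is from its own mouse is not stated, so p-values describe only how these samples vary, and that variation may be technical.

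RT replicate 3 stood apart, with the highest level of all 11 neutrophil markers. Their summed level was 2989 TPM in it, against 11.1 and 18.7 TPM in RT replicates 1 and 2 and 74.7 to 187 TPM in CT. Among them Ly6g was at 0 in RT replicates 1 and 2 and Mmp8 at 0 in RT replicate 1. CT replicate 2 had the lowest level of all 10 slow-fibre markers, with a sum of 94.1 TPM, against 1115, 2167 and 288 TPM in RT replicates 1, 2 and 3 and 1205 and 1639 TPM in CT replicates 1 and 3. The fast-fibre markers, which define this muscle, summed to 176859, 182620 and 95229 TPM in RT replicates 1, 2 and 3. In CT replicates 1, 2 and 3 they summed to 114368, 132620 and 112359 TPM. RT replicates 1 and 2 thus lay above every CT library and RT replicate 3 below every CT library. Because the tissue is bulk, fewer cells of a type and less RNA per cell cannot be told apart.

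None of the 9 genes passed the test between RT and CT. The median difference of the 9 in log2(TPM + 1), RT minus CT, was -0.69, beside -0.36 for all tested features, and it was below 0 for 6 of 9, beside 78.5% of all. By limma with Benjamini-Hochberg adjustment 0 of 9 had an adjusted p under 0.05, beside 0.0419% of all features higher, 0.0168% lower and 0.0586% in either direction. At an unadjusted p under 0.05, 2 of the 9 were lower and 0 were higher, beside 13.3% and 1.18% of all. The same genes, Cd36 and Acot2, lay lower in every RT library than in every CT library, and such a separation was found in 19.3% of all features. No gene of the 9 lay higher in every RT library, beside 1.73% of all. An exact permutation test between groups of 3 has 0.1 as its smallest p. By mean level over the 6 libraries, Fabp3 came first at 277 TPM, then Pdk4 at 133, Lpl at 50.9, Cd36 at 49.2, Ucp3 at 28.7, Ucp2 at 11.9, Angptl4 at 7.14, Acot2 at 4.06 and Acot1 at 1.22 TPM. Their ranges over the libraries overlapped between each gene and the next in this order.

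**Figure D1:**
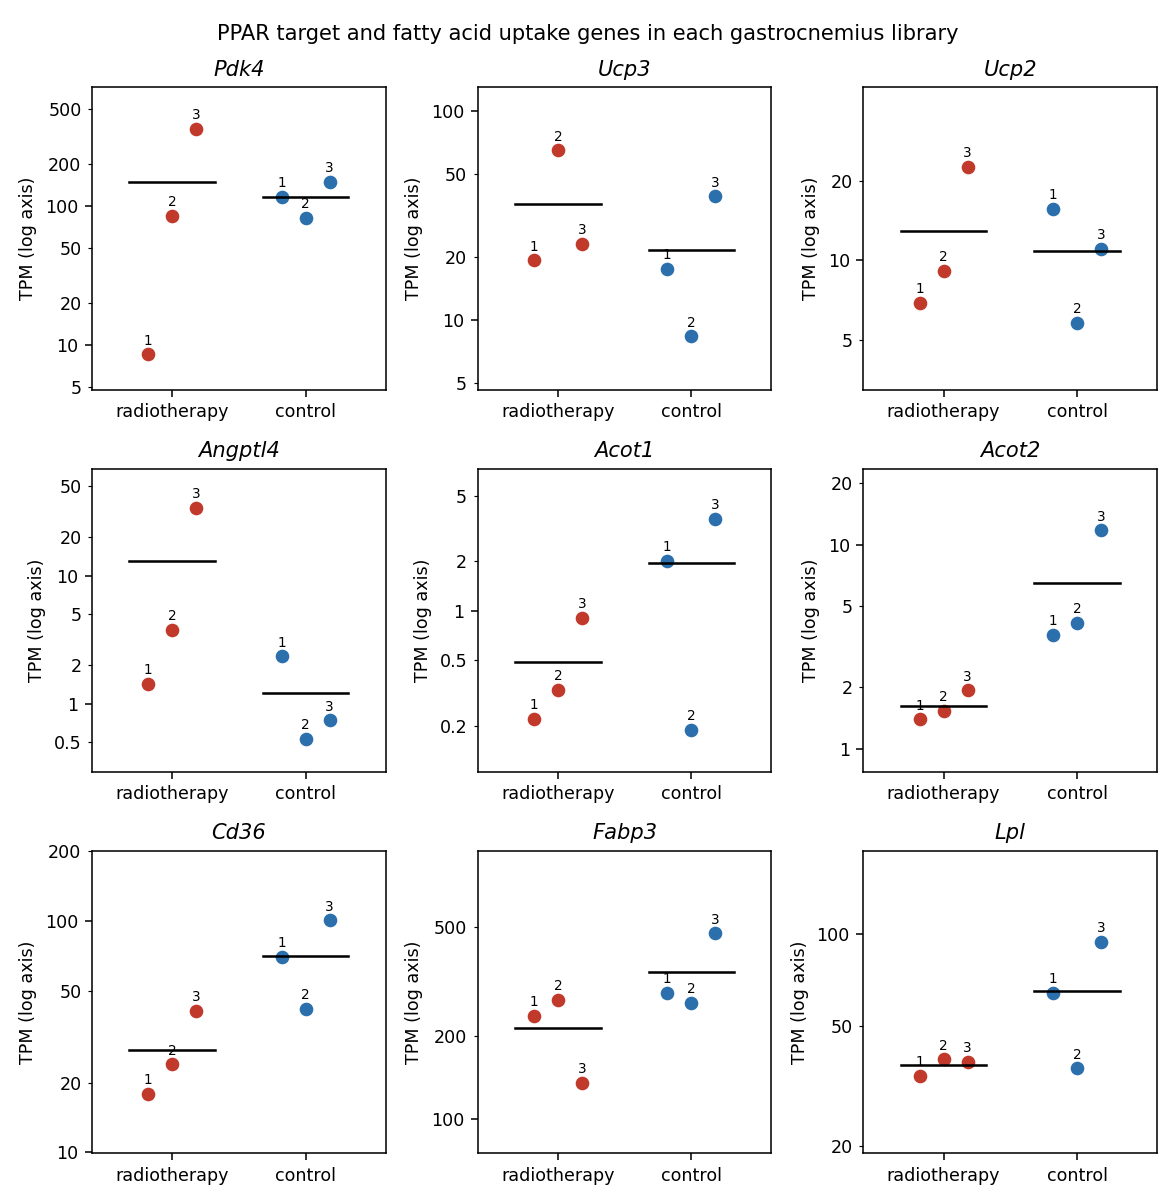
Each panel shows 1 gene, with its level in TPM on a log axis for the 3 RT (red) and 3 CT (blue) libraries; numbers are replicates and black lines are group means. RT replicate 3 is the highest point for Pdk4, Ucp2 and Angptl4, and the groups do not overlap for Cd36 and Acot2.

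Lpl, the lipase that frees fatty acids from circulating lipoproteins, was even across the RT libraries and uneven across CT. It was at 34.2, 38.7 and 38.0 TPM in RT replicates 1, 2 and 3 and at 64.2, 36.2 and 94.1 TPM in CT replicates 1, 2 and 3. CT replicates 1 and 3 lay above every RT library, and CT replicate 2 lay inside the RT range. The means were 37.0 ± 2.43 TPM in RT and 64.8 ± 29.0 TPM in CT (SD, n = 3 each), a log2 difference of -0.69 (SE 0.38, 95% interval -1.59 to 0.21, limma adjusted p = 0.412). Gpihbp1, which holds the lipase on the capillary wall, was at 61.0 ± 32.4 TPM in RT and 57.0 ± 9.50 TPM in CT (SD, n = 3 each). Lmf1, which matures the lipase inside the cell, was at 8.08 ± 0.750 TPM in RT and 9.24 ± 2.55 TPM in CT (SD, n = 3 each).

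Angptl4 encodes a secreted inhibitor of the lipase and is induced by fatty acids through PPARs. It was at 1.43, 3.75 and 34.1 TPM in RT replicates 1, 2 and 3 and at 2.34, 0.53 and 0.74 TPM in CT replicates 1, 2 and 3. RT replicates 2 and 3 lay above every CT library and RT replicate 1 lay inside the CT range, so the groups overlapped. The log2 difference was 1.84 (SE 0.93, 95% interval -0.37 to 4.04, limma adjusted p = 0.393), the highest of the 9, and 0.71 (SE 0.46, limma adjusted p = 0.258) without RT replicate 3. The neutrophil markers were also highest in that library, and their part in the result was not tested. The level of Angptl4 relative to that of Lpl was 0.0418, 0.0969 and 0.897 in the RT libraries and 0.0365, 0.0147 and 0.00786 in the CT libraries. This ratio did not overlap between the groups, with the smallest p that an exact permutation test can give here, 0.1 (two-sided, 0.4 after Benjamini-Hochberg adjustment over 8 such quantities). RT replicate 1 exceeded CT replicate 1 only narrowly.

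Cd36, the membrane transporter of long-chain fatty acids, is made by muscle fibres, capillary endothelium, macrophages and adipocytes. It was at 17.9, 24.0 and 41.0 TPM in RT replicates 1, 2 and 3 and at 70.0, 41.6 and 100.4 TPM in CT replicates 1, 2 and 3. Every RT library lay below every CT library, although RT replicate 3 and CT replicate 2 were nearly level. The means were 27.6 ± 12.0 TPM in RT and 70.7 ± 29.4 TPM in CT (SD, n = 3 each), a log2 difference of -1.32 (SE 0.44, 95% interval -2.36 to -0.28, limma adjusted p = 0.306). That is -0.96 from the median of all features. Without RT replicate 3 the difference was -1.64 (limma adjusted p = 0.0308), in a setting where 27.6% of all features passed as lower and 1.98% as higher. The summed level of 12 capillary endothelium markers was 286, 278 and 824 TPM in RT replicates 1, 2 and 3 and 475 to 523 TPM in CT. A large part of this sum was 1 gene, Rgcc. It was at 76.2, 92.2 and 449 TPM in RT replicates 1, 2 and 3 and at 232 to 300 TPM in CT. Of these 12 markers 1 lay lower and 1 higher in every RT library than in every CT library, beside 19.3% and 1.73% of all features. The 12 macrophage markers summed to 73.5 to 400.3 TPM in RT and 74.1 to 237 TPM in CT. For the 10 adipocyte markers the sum was 470.4 to 826 TPM in RT and 323 to 682 TPM in CT, most of it from Fabp4 and Cfd. Fabp4, also made in endothelium, reached 587 TPM in RT replicate 3, where Adipoq was lowest at 1.65 TPM. Of the 10 adipocyte markers, 2 were highest and 1 lowest in RT replicate 3. The part of these cells in the Cd36 difference was not tested.

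The promoter window of Cd36 is shown because it was 1 of 2 among the genes here that held AGGTCA, the half-site to which PPARs and related receptors bind. The window of 300 bases around the start of the gene (RefSeq, GRCm38.p6, chr5:17835847-17836146, minus strand) has the half-site in capitals, here on the opposite strand.
Cd36: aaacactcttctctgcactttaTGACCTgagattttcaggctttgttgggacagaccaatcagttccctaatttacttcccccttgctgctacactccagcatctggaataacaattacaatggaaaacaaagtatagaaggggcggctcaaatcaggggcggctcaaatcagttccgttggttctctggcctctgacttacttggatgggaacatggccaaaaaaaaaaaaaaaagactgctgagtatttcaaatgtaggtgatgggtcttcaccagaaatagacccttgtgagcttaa

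Fabp3, the cytosolic fatty acid carrier of heart and oxidative muscle, was the most abundant of the 9. It was at 236, 271 and 135 TPM in RT replicates 1, 2 and 3 and at 287, 263 and 472 TPM in CT replicates 1, 2 and 3. RT replicate 3 was lowest and CT replicate 3 highest, while RT replicate 2 lay above CT replicate 2. The means were 214 ± 71.0 TPM in RT and 341 ± 115 TPM in CT (SD, n = 3 each), a log2 difference of -0.68 (SE 0.38, limma adjusted p = 0.417). The separately listed pseudogene Fabp3-ps1 did not exceed 0.31 TPM in RT and 0.67 TPM in CT.

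Acot1 and Acot2 encode thioesterases that split fatty acyl-CoA into free fatty acid and CoA, Acot1 in the cytosol and Acot2 in the mitochondrion. Both were low. Acot2 was at 1.39, 1.53 and 1.93 TPM in RT replicates 1, 2 and 3 and at 3.61, 4.15 and 11.7 TPM in CT replicates 1, 2 and 3. The RT libraries were close together and all lay below the lowest CT library. The means were 1.62 ± 0.280 TPM in RT and 6.5 ± 4.54 TPM in CT (SD, n = 3 each), a log2 difference of -1.36 (SE 0.42, 95% interval -2.34 to -0.38, limma adjusted p = 0.299). That is -1.0 from the median of all features. Acot1 was at 0.22, 0.33 and 0.91 TPM in RT replicates 1, 2 and 3 and at 2.02, 0.19 and 3.64 TPM in CT replicates 1, 2 and 3. CT replicate 2 held the lowest level of the 6, so the groups overlapped (log2 difference -0.81, SE 0.53, limma adjusted p = 0.468).

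The pair are neighbouring genes on chromosome 12 whose reading frames are alike, so reads can be split between them in a way that the table does not show. In the GENCODE M21 transcripts (GRCm38) their reading frames, the longest in Acot1-201 and Acot2-201, were identical at 95.5% of 1239 aligned bases, with an unbroken identical run of 273 bases. Over the whole aligned transcripts 82.1% of bases were identical. Of all windows of 100 bases, 16.5% of those in Acot1 and 17.1% of those in Acot2 occurred unchanged in the other messenger. The starts of both reading frames are shown because only Acot2 has a long unaligned stretch there. Lower case marks the bases before the gapless aligned part and capitals the first 45 aligned bases, 39 of them identical. ACOT2 is known to carry a mitochondrial leader at its start.
Acot1: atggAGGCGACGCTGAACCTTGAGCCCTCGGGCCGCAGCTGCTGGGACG
Acot2: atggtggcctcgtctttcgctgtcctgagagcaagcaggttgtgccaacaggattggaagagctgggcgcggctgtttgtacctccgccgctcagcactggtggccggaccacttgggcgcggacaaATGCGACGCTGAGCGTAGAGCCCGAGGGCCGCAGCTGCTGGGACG

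The summed level of Acot1 and Acot2, which depends less on how reads were split between them, was 1.61, 1.86 and 2.84 TPM in RT replicates 1, 2 and 3 and 5.63, 4.34 and 15.4 TPM in CT replicates 1, 2 and 3. Every RT library lay below every CT library, as for Acot2 alone and as in 19.3% of all features. The log2 difference was -1.45 (SE 0.45, limma adjusted p = 0.299), and the exact permutation test, two-sided, gave 0.1, the smallest p it can give, and 0.4 after adjustment over the same 8 quantities. Acot2 exceeded Acot1 in all 6 libraries, by 6.32, 4.64 and 2.12 times in RT and by 1.79, 21.8 and 3.22 times in CT.

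Pdk4 encodes the kinase that shuts off pyruvate dehydrogenase and so spares glucose when fat is burned. It had the widest spread of the 9 within RT. It was at 8.6, 84.8 and 356 TPM in RT replicates 1, 2 and 3 and at 116, 81.7 and 149.8 TPM in CT replicates 1, 2 and 3. RT replicate 1 lay far below every CT library, RT replicate 2 inside the CT range and RT replicate 3 above it. The ratio of the highest to the lowest library was 41.4 in RT and 1.83 in CT. The group means, 149.8 ± 183 TPM in RT and 116 ± 34.0 TPM in CT (SD, n = 3 each), therefore describe no single RT library, and the log2 difference was -0.77 (SE 1.18, 95% interval -3.56 to 2.01, limma adjusted p = 0.747). It was -1.98 without RT replicate 3 (limma adjusted p = 0.137) and 0.63 without RT replicate 1 (limma adjusted p = 0.791).

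The other kinases differed from Pdk4 in pattern. Pdk2, the abundant muscle form, was at 152, 132 and 148 TPM in RT replicates 1, 2 and 3 and at 311, 288 and 193 TPM in CT replicates 1, 2 and 3. It lay lower in RT without overlap, as did 19.3% of all features (log2 difference -0.84, SE 0.28, limma adjusted p = 0.306). Pdk1 was at 2.78 to 3.38 TPM in RT and 2 to 5.42 TPM in CT, and Pdk3 stayed below 1 TPM in all 6 libraries. Pdk4 thus made up 5.25%, 38.5% and 70.1% of the summed TPM of the 4 kinases in RT replicates 1, 2 and 3 and 26.8%, 21.9% and 43.0% in CT replicates 1, 2 and 3. The share overlapped between the groups (exact permutation p = 0.9, two-sided, and 1 after adjustment). The summed level of the 4 kinases was 164, 220.3 and 508 TPM in RT replicates 1, 2 and 3 and 432, 372 and 348 TPM in CT replicates 1, 2 and 3, so RT replicate 3 was highest and the groups overlapped.

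The promoter window of Pdk4 is shown because the gene varied most between RT libraries. It held neither AGGTCA nor GTAAACA, the letters of a FOXO site (RefSeq, GRCm38.p6, chr6:5496229-5496528, minus strand), so it has no capitals.
Pdk4: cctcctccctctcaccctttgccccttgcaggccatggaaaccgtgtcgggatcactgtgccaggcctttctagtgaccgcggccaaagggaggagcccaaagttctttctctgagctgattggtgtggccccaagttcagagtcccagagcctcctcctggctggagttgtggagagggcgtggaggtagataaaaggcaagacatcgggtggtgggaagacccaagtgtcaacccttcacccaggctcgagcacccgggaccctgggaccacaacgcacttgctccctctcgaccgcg

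Ucp3 and Ucp2 are neighbouring genes on chromosome 7 for mitochondrial carriers of the uncoupling protein family. Ucp3 is made mainly in skeletal muscle, and Ucp2 in many tissues and in immune cells. Ucp3 was at 19.3, 64.6 and 23.2 TPM in RT replicates 1, 2 and 3 and at 17.6, 8.39 and 39.0 TPM in CT replicates 1, 2 and 3. RT replicate 2 was highest, as in 4.17% of all features, CT replicate 2 was lowest, and the groups overlapped (log2 difference 0.74, SE 0.65, limma adjusted p = 0.566). The difference was 0.21 without RT replicate 2 and 0.22 without CT replicate 2. The same libraries were at the ends of the slow-fibre markers: 7 of 10 were highest in RT replicate 2 and 10 of 10 lowest in CT replicate 2. RT replicate 3 had a lower slow-fibre sum than RT replicate 1, 288 against 1115 TPM, but a higher level of Ucp3. The slow myosin gene Myh7 was at 177, 362 and 32.6 TPM in RT replicates 1, 2 and 3 and at 203, 8.61 and 251 TPM in CT replicates 1, 2 and 3. No slow-fibre marker lay lower or higher in every RT library than in every CT library, beside 19.3% and 1.73% of all features. The part of these markers in the level of Ucp3 was not tested.

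Ucp2 was at 6.88, 9.12 and 22.7 TPM in RT replicates 1, 2 and 3 and at 15.7, 5.81 and 11.1 TPM in CT replicates 1, 2 and 3. RT replicate 3 was highest and CT replicate 2 lowest (log2 difference 0.16, SE 0.51, limma adjusted p = 0.888). Its sign turned without RT replicate 3 (-0.31) or without CT replicate 2 (-0.20). Ucp3 exceeded Ucp2 by 2.81, 7.08 and 1.02 times in RT replicates 1, 2 and 3 and by 1.12, 1.44 and 3.52 times in CT replicates 1, 2 and 3, and this ratio overlapped between the groups (exact permutation p = 0.7, two-sided, and 1 after adjustment). Ucp1, the form of brown fat, did not exceed 0.19 TPM in RT and 0.07 TPM in CT.

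The Ucp3 promoter window is shown because it held 2 copies of the half-site AGGTCA, in capitals, on the strand of the gene (RefSeq, GRCm38.p6, chr7:100472741-100473040, plus strand).
Ucp3: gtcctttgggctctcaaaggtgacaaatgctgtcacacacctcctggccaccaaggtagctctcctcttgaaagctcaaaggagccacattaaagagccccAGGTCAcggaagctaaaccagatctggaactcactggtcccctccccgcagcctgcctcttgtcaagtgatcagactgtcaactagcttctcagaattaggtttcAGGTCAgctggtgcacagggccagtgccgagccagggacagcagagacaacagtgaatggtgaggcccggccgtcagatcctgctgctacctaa

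Promoter windows were found for 7 of the 9 genes, all but Angptl4 and Lpl. Both strands were searched. AGGTCA was in 2 of the 7, beside 16.3% of 32851 RefSeq windows of 300 bases. The full PPAR element, 2 copies of AGGTCA in a row with any 1 base between them, which contains the half-site, was in 0 of the 7, beside 0.0396% of all windows. The closest match differed from it at 2 of 12 specified letters in Cd36 and Ucp3, as near as in 3.86% of all windows, at 3 in Acot2 (24.6%) and at 4 in Fabp3, Pdk4, Ucp2 and Acot1 (79.8%). GTAAACA was in 0 of the 7, beside 3.65% of all windows. These are matches of letters in a short window, and elements farther away were not searched.

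**Figure D2:**
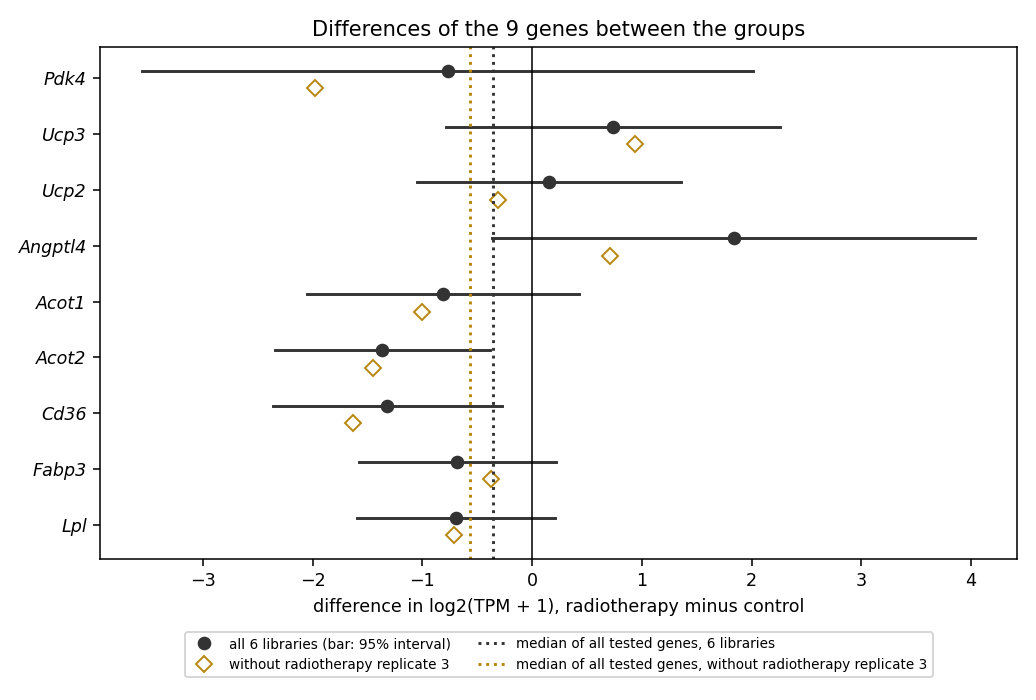
Points give the difference of each gene in log2(TPM + 1), RT minus CT, with its 95% interval (limma, 3 libraries in each group); open diamonds give it without RT replicate 3 and dotted lines the median of all tested features. The intervals of Acot2 and Cd36 lie below 0, that of Pdk4 runs from -3.56 to 2.01, and Angptl4 is highest at 1.84.

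The 9 genes differed in which libraries were high and low. Over the 6 libraries, the centred log2 profiles of Acot1 and Lpl were closest, with a root mean square difference of 0.27. Those of Angptl4 and Acot2 were farthest apart, at 2.05. Such a difference also grows with how widely each gene varied, which was most for Pdk4 and Angptl4. Pdk4 and Angptl4, both highest in RT replicate 3, differed by 1.5, and RT replicate 1 was the lowest library for Pdk4 but not for Angptl4. RT replicate 3 was the highest library for 3 of the 9 genes, Pdk4, Angptl4 and Ucp2, beside 30% of all features. CT replicate 3 was highest for 5, Acot1, Acot2, Cd36, Fabp3 and Lpl, beside 11% of all features. RT replicate 1 was lowest of the 6 for 4, Pdk4, Acot2, Cd36 and Lpl, beside 23.2% of all features. Within CT, replicate 3 was highest for 7 of the 9, all but Ucp2 and Angptl4, beside 18.6% of all features, and replicate 2 was lowest for 8 of the 9, all but Acot2, beside 42.1% of all features.

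**Figure D3:**
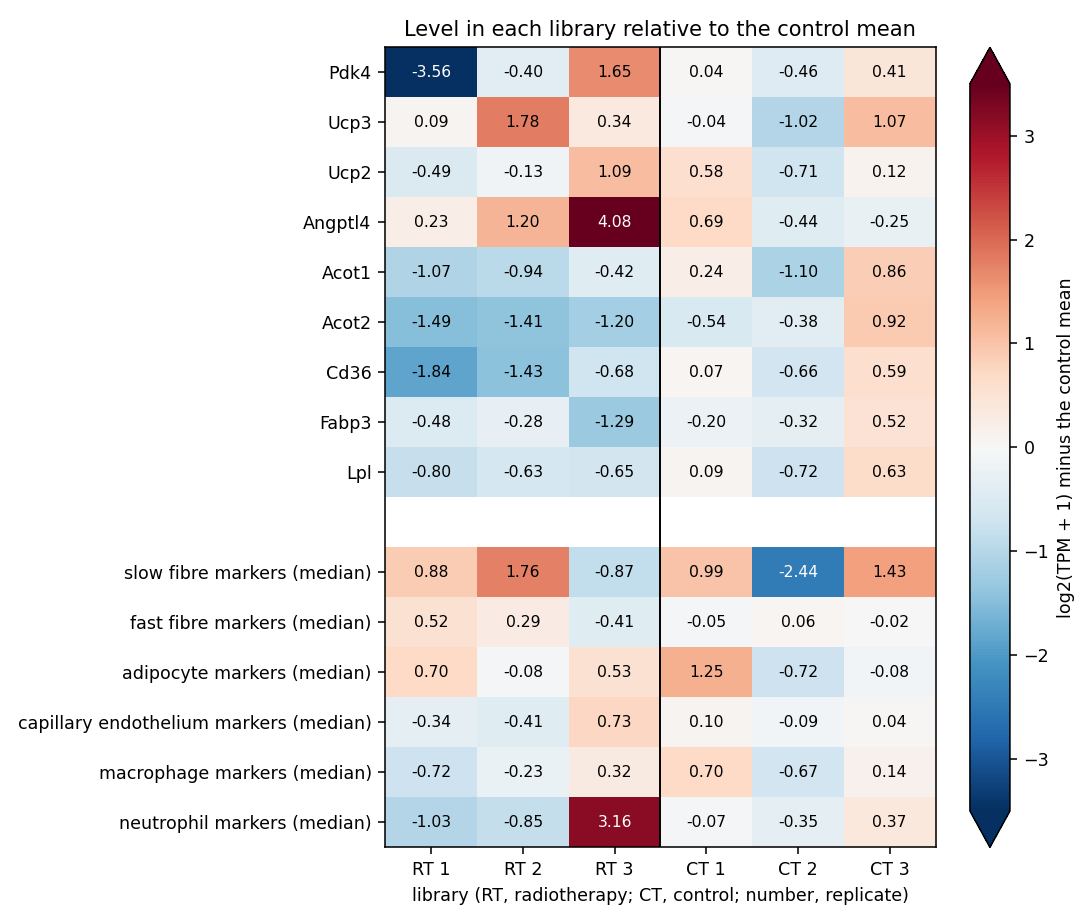
Colours and numbers give the level in log2(TPM + 1) minus the CT mean, for each gene in each library (upper rows) and as the median over the tested genes of 6 marker lists (lower rows). RT replicate 3 has the highest values of Angptl4 (4.08) and of the neutrophil markers (3.16), and CT replicate 2 the lowest of the slow-fibre markers (-2.44).

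The genes with the most similar profiles over the 6 libraries were sought among 6732 named features averaging 5 TPM or more, by the root mean square difference of centred log2 levels. For Lpl this was Sucla2, a subunit of a citric acid cycle enzyme, at 0.11, and then the kinase Clk4 at 0.12. For Ucp2 it was Iqgap1, a scaffold protein of the cytoskeleton, at 0.15, and then Anxa1, annexin A1, at 0.16. For Cd36 it was Zfp617 at 0.14 and Nadk2, a mitochondrial NAD kinase, at 0.19, and for Acot2 Amy1 at 0.32 and Plin5, a lipid droplet protein, at 0.34. Angptl4 was followed by Fbxl22 at 0.40 and by the macrophage marker Cd68 at 0.41. Cd68 was at 6.53, 8.49 and 121 TPM in RT replicates 1, 2 and 3 and at 14.8, 4.84 and 6.79 TPM in CT replicates 1, 2 and 3. Of the 12 macrophage markers, 5 were highest in RT replicate 3, 5 in CT replicate 1 and 2 in CT replicate 3. For Ucp3 the closest was Tnnt2, a troponin T form of heart, at 0.46, and then Gm31243 at 0.51. Acot1 was closest to Zfp445 and Snhg5, both at 0.19, and Fabp3 to Gm10053 at 0.12 and Gm44386 at 0.13. Pdk4 lay farthest from its closest profiles, with Gm12328 at 0.68 and Cebpd, a stress-induced transcription factor, at 0.71. Such a difference grows with how widely a gene varied. The root mean square of the centred profile itself was 1.59 for Pdk4 and 0.88 for Ucp3.

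None of the receptors and factors that act on these genes passed the test. Of 25 tested, 22 had a log2 difference below 0, beside 78.5% of all features, and the median difference was -0.66, beside -0.36. By limma adjusted over all features 0 passed, and at an unadjusted p under 0.05, 7 were lower and 0 higher, beside 13.3% and 1.18% of all. Ppard, which encodes PPAR-delta, was at 4.97, 4.06 and 13.3 TPM in RT replicates 1, 2 and 3 and at 17.0, 12.7 and 9.21 TPM in CT replicates 1, 2 and 3, so RT replicate 3 lay inside the CT range. Ppara did not exceed 0.19 TPM in RT and 0.69 TPM in CT and was not tested, and Pparg was at 1.21 to 4.52 TPM in RT and 1.39 to 2.41 TPM in CT. Ppargc1a, the PPAR coactivator PGC-1α, was at 0.89, 1.10 and 0.79 TPM in RT replicates 1, 2 and 3 and at 3.81, 1.10 and 5.68 TPM in CT replicates 1, 2 and 3, with RT replicate 2 level with CT replicate 2.

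Foxo1, which activates Pdk4 in fasted muscle, was at 1.3, 2.32 and 3.96 TPM in RT replicates 1, 2 and 3 and at 8.23, 7.67 and 8.28 TPM in CT replicates 1, 2 and 3 (log2 difference -1.43, SE 0.32, limma adjusted p = 0.251). Foxo1 and Pdk4 were thus in the same order within RT, while the highest RT level of Foxo1 lay below CT and the highest RT level of Pdk4 above it. Klf15, a factor induced by glucocorticoids, was at 15.9, 14.8 and 38.9 TPM in RT replicates 1, 2 and 3 and at 50.4, 43.3 and 32.2 TPM in CT replicates 1, 2 and 3. Lpin1, a PGC-1α partner and phosphatidate phosphatase, was at 14.6, 13.5 and 40.3 TPM in RT and at 87.1, 61.9 and 60.9 TPM in CT. Prkaa2, the muscle catalytic subunit of AMP-activated kinase, was at 9.18 ± 5.90 TPM in RT and 23.9 ± 7.95 TPM in CT (SD, n = 3 each). Ncor1, a corepressor of PPARs, was at 13.4 ± 2.13 TPM in RT and 24.1 ± 5.42 TPM in CT (SD, n = 3 each).

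Other PPAR target genes, most of them enzymes of fat oxidation, were lower in every RT library than in every CT library in 16 of 37 tested (43.2%, beside 19.3% of all), with 0 of 37 higher in every RT library. This list and the other gene lists were chosen with earlier results of these data known, so such a share is not an independent test. The skeletal muscle identity markers had about the same share, with 4 of 10 (40%) lower in every RT library, and their part in the result was not tested. These 4 were Neb, Myod1, Mybpc1 and Mybpc2. None of the 37 PPAR targets passed by limma adjusted over all features, 12 were lower at an unadjusted p under 0.05 (13.3% of all) and 0 higher, and the median log2 difference was -0.36, the same as that of all features. Cpt1b, the muscle form of the enzyme that admits long-chain fatty acids to mitochondria, had tight groups. It was at 46.3, 40.6 and 38.6 TPM in RT replicates 1, 2 and 3 and at 94.6, 96.9 and 91.9 TPM in CT replicates 1, 2 and 3 (log2 difference -1.16, SE 0.24, limma adjusted p = 0.238). Mlycd, which breaks down the inhibitor of that enzyme, was at 34.5 ± 8.86 TPM in RT and 90.4 ± 17.9 TPM in CT (SD, n = 3 each). Etfdh, which passes electrons from fat oxidation to the respiratory chain, was at 18.8 ± 2.15 TPM in RT and 39.5 ± 8.71 TPM in CT (SD, n = 3 each). Acsl1, which activates fatty acids to acyl-CoA, was at 15.3 ± 4.27 TPM in RT and 31.7 ± 6.26 TPM in CT (SD, n = 3 each). These 4 are the genes of the list with the smallest p. Among other genes of the list, Fabp4 and Plin2 were named after their values were seen. RT replicate 3 was the highest of the 6 libraries for both, as for 30% of all features. Fabp4, the fatty acid carrier of adipocytes and endothelium, was at 293, 285 and 587 TPM in RT replicates 1, 2 and 3 and at 235, 262 and 318 TPM in CT replicates 1, 2 and 3. Plin2, a lipid droplet protein, was at 20.2, 21.0 and 51.5 TPM in RT and at 41.3, 28.0 and 22.3 TPM in CT.

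Genes of fatty acid uptake, binding and release lay near the shares of all features. Of 36 tested, 8 were lower (22.2%) and 2 higher in every RT library than in every CT library, beside 19.3% and 1.73% of all. By limma 0 passed, 5 were lower at an unadjusted p under 0.05 (13.3% of all) and 0 higher, and the median log2 difference was -0.39, beside -0.36 for all. Dgat2, a triglyceride-forming enzyme, was at 4.67 ± 0.460 TPM in RT and 10.1 ± 2.83 TPM in CT (SD, n = 3 each), and Acsl6 at 11.6 ± 3.31 TPM in RT and 24.7 ± 6.21 TPM in CT (SD, n = 3 each). Pnpla3, a lipid droplet protein, was at 0.97 to 2.23 TPM in RT and 2.61 to 10.3 TPM in CT. The 2 genes that lay higher, named after their values were seen, were Fabp5 and Mgll. Fabp5, a carrier made in endothelium and macrophages, was at 9.81, 9.47 and 22.7 TPM in RT replicates 1, 2 and 3 and at 7.36, 7.56 and 6.68 TPM in CT replicates 1, 2 and 3 (log2 difference 0.76, SE 0.36, limma adjusted p = 0.379). Mgll, the lipase that splits monoglycerides, was at 10.7, 11.3 and 13.7 TPM in RT and at 9.66, 7.82 and 10.0 TPM in CT (log2 difference 0.34, SE 0.24, limma adjusted p = 0.506).

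Around Pdk4, the genes of the pyruvate dehydrogenase complex and its other regulators were lower without overlap in 6 of 9 tested (66.7%, beside 19.3% of all). By limma 0 passed, with 5 lower at an unadjusted p under 0.05 (13.3% of all) and 0 higher. The subunits Dlat and Dld were at 17.0 ± 1.22 and 39.9 ± 3.63 TPM in RT and at 27.7 ± 1.14 and 65.8 ± 11.2 TPM in CT (SD, n = 3 each). Pdpr, a regulator of the phosphatase that reactivates the complex, was at 0.28 to 1.10 TPM in RT and 1.63 to 7.32 TPM in CT. Of 6 other thioesterases tested, 1 separated the groups (16.7%, beside 19.3% of all), and 0 passed by limma, with 1 lower at an unadjusted p under 0.05 and 0 higher. This was Them4, at 1.61 ± 0.528 TPM in RT and 4.02 ± 0.793 TPM in CT (SD, n = 3 each). Acot13 was at 80.2 to 152 TPM in RT and 147 to 194 TPM in CT, Acot7 at 8.38 to 12.7 TPM in RT and 6.81 to 10.2 TPM in CT, and Acot9 at 8.29 to 62.1 TPM in RT and 26.7 to 29.2 TPM in CT. Of 3 carriers close to the uncoupling proteins 0 passed, also at an unadjusted p under 0.05. Among them the adenine nucleotide carrier Slc25a4 was at 1468 ± 552 TPM in RT and 1666 ± 343 TPM in CT (SD, n = 3 each). Slc25a5 was at 38.4 ± 22.6 TPM in RT and 39.5 ± 3.35 TPM in CT, and Slc25a27 at 2.12 ± 0.361 TPM in RT and 2.45 ± 0.792 TPM in CT (SD, n = 3 each).

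**Figure D4:**
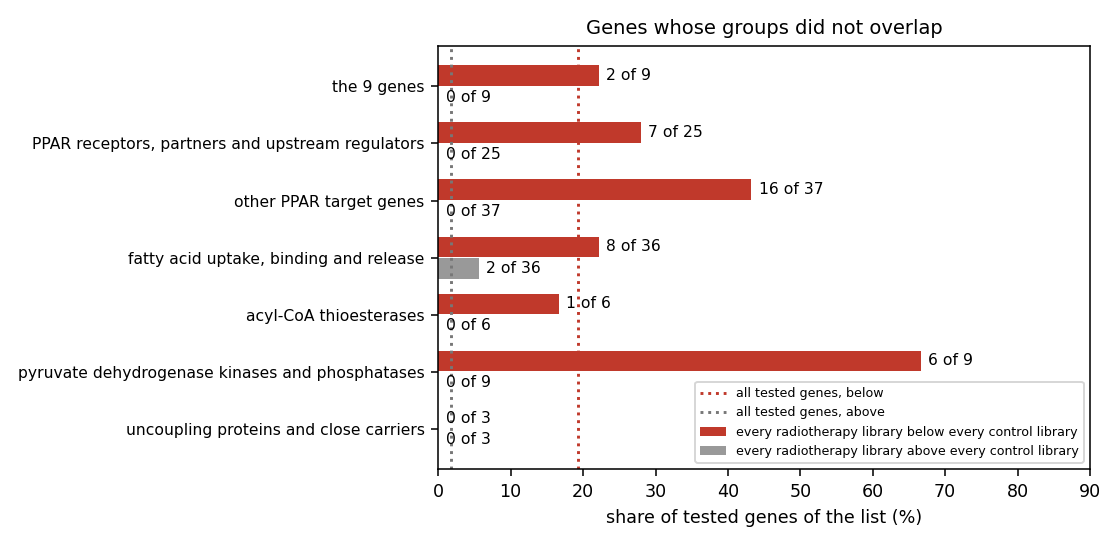
Bars give the share of tested genes of each list that lie below (red) or above (grey) CT in every RT library, with their counts; dotted lines give the same shares over all tested features, 19.3% and 1.73%. The 9 genes lie near the line for lower levels with 2 of 9, and 16 of 37 other PPAR targets lie below CT.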

How the data were processed

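The authors deposited 1 table of TPM per gene and library. The submitters' processing notes name HISAT2, StringTie, RSEM and the build mm9, without versions, order or roles, and the annotation used is not stated there, so no gene positions are taken from mm9. A TruSeq kit was used for the libraries, per the labels. The depth of the libraries is unknown because the analysis started from TPM, and precision is set by 3 libraries per group. Groups and replicate numbers came from the labels. The members and gene lists were chosen with earlier results of these data known.

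The 11938 features averaging 1 TPM or more were tested as log2(TPM + 1) with limma 3.58.1 in R 4.3.3 (empirical Bayes with a trend, two-sided, no covariates). Benjamini-Hochberg adjustment covered all of these features, and the threshold was 0.05. The pseudocount understates changes of low genes. Single values were tested by exact permutation. The fit was tested on simulated data. No 2 libraries were identical.

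Named besides the 9 genes were up to 4 genes with the smallest p of each of 6 pathway lists, 10 partners fixed by name and, for each of the 9, the 2 closest profiles. Other genes were named after their values were seen. Promoter windows are from RefSeq (GRCm38.p6) and transcripts from GENCODE M21. Messengers were aligned with Biopython 1.88, and figures were drawn with matplotlib 3.10.9. As alternatives, the pseudocount was set to 0.1 or 0.5, the filter to 5 TPM or none and the scaling to 3 others. The trend was dropped, robust empirical Bayes used, the replicate number entered as a block and every library left out in turn.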

Additional observations from a re-analysis of the deposited data

How the results depend on the processing

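Among the 9 genes, 0 passed under the settings tried, except that 1, Cd36, passed as lower without RT replicate 3, so leaving out 1 library gave 0 to 1. Acot1, Acot2, Cd36, Fabp3 and Lpl stayed below 0 and Ucp3 and Angptl4 above 0 in all settings in which they were tested, but their sizes moved. The ranges were -1.36 to -0.38 for Acot1, -1.75 to -0.90 for Acot2, -1.65 to -0.90 for Cd36, -0.88 to -0.25 for Fabp3, -1.05 to -0.27 for Lpl, 0.21 to 1.27 for Ucp3 and 0.71 to 2.64 for Angptl4. With median-of-ratios scaling Fabp3 was at -0.25 and Lpl at -0.27. Lpl was at -1.05 without CT replicate 2 and at -0.38 without CT replicate 3, and without the same libraries Acot1 was at -1.36 and -0.38. Acot1 and Acot2 fell under the stricter filter of 5 TPM. The log2 difference of Pdk4 ranged from -1.98 to 0.63 when 1 library was left out, and that of Ucp2 from -0.31 (without RT replicate 3; -0.20 without CT replicate 2) to 0.48. The summed Acot1 and Acot2 level kept its direction and missed the threshold in every setting tried.

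Of all features, 7 passed as reported, 0 without a filter on low values, 4 after median-of-ratios scaling or quantile normalisation and 4 with the replicate number as a block. Leaving out 1 library gave 1 to 3534, with 3 without RT replicate 1, 4, 13 and 1 without CT replicates 1, 2 and 3, and 3534 without RT replicate 3. Of the calls 71.4% were higher as reported, 50% with a pseudocount of 0.1, 55.6% with rescaling without abundant genes and 100% with the replicate block. Without RT replicates 1, 2 and 3 this share was 100%, 88.9% and 6.68%, and without CT replicates 1, 2 and 3 it was 0%, 7.69% and 0%. The median log2 difference of all features was shifted by 0.34, 0.33 and 0.14 with median-of-ratios scaling, quantile normalisation and rescaling. Without RT replicate 3, limma called 15 of 25 receptor and regulator genes, 13 of 37 other PPAR targets, 8 of 36 uptake genes, 2 of 6 thioesterases, 4 of 9 pyruvate dehydrogenase genes and 1 of 3 carriers, beside 27.6% of all features lower and 1.98% higher. Each other setting that left out 1 library gave 0 for these lists.

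Some small differences changed sign. With median-of-ratios scaling, quantile normalisation and rescaling without abundant genes, Slc25a27 was at 0.17, 0.16 and 0.017, Slc25a5 at 0.23, 0.21 and 0.018, Gpihbp1 at 0.41, 0.39 and 0.19 and Lmf1 at 0.24, 0.29 and 0.042. Slc25a4 was at 0.18 with median-of-ratios scaling. When 1 library was left out, Slc25a4 ranged from -0.44 to 0.12, Slc25a5 from -0.62 to 0.10, Gpihbp1 from -0.41 to 0.21, Lmf1 from -0.30 to 0.042 and Pparg from -0.34 to 0.32. The cause was not tested.

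Same-numbered RT and CT libraries did not deviate together, with correlations of -0.045, -0.112 and -0.201, beside -0.0879 to 0.182 for differently numbered ones. With 3 libraries per group this cannot decide whether the numbers pair the samples. With the replicate block 0 of the 9 genes passed.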
